A study of Rattus norvegicus with 4 samples.

Results

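The genes described here are 10 sensors and regulators of cellular energy state: the sirtuins Sirt1, Sirt3 and Sirt5, the AMP-activated protein kinase (AMPK) subunits Prkaa1, Prkab1, Prkag1 and Prkag2, the mitochondrial biogenesis regulators Ppargc1a and Esrra, and the mitochondrial carrier Ucp2. They were taken by name, not by measured value, and every probe carrying one of the names was kept. They have 11 probes of the 41012 on the array, 2 for Prkag2 and 1 for each other gene. Probes for Sirt1 and Sirt3 carry an older predicted name in the files, and the Esrra probe was identified through the gene number in its description. Of the 11 probes, 7 were bright enough to be tested, covering 6 of the 10 genes, among 18869 tested probes in all.

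Colon mucosa came from F344 rats, an inbred strain. The resveratrol + DSS rats ate resveratrol, a plant polyphenol, at 1 mg/kg/day over 20 days and then drank 5% dextran sodium sulphate (DSS), an agent that injures the colonic epithelium, over 5 days. The control rats ate standard chow and drank the same DSS, so both groups were exposed to it. No score of colitis was used here for either group. Each of 4 two-colour arrays held Cy5-labelled RNA of 2 resveratrol + DSS rats (8 rats in all) against Cy3-labelled RNA of a DSS control pool. The number of rats in the pool, the age of the rats, and whether 1 pool served for all arrays are not given in the sources used here. No array had the dyes exchanged, so a difference between the dyes and a difference between the groups cannot be told apart. Arrays 1 and 2 lay on slide 1 and arrays 3 and 4 on slide 2.

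AMPK is a kinase of 3 subunits, a catalytic alpha, a scaffolding beta and a gamma that binds AMP, and it is switched on when cellular energy runs low. SIRT1 is a nuclear deacylase that depends on NAD, while SIRT3 and SIRT5 work inside mitochondria. AMPK and SIRT1 both act on the coactivator PGC-1α, product of Ppargc1a, which works with nuclear receptors such as ERRα, product of Esrra, to drive genes of mitochondrial respiration. Resveratrol is best known for its reported effects on SIRT1 and AMPK, and most of this regulation takes place on proteins, which the arrays do not measure.

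The findings rest on the probes for Prkag2, Ucp2 and Sirt3, whose 60-base sequences are given here as the array files list them, with positions in the rn3 build. The Prkag2 probe A_44_P468323, the brighter one in the plots, is placed at chr4:5644033-5649788, a span of 5756 bases that is longer than the probe. The dimmer Prkag2 probe, A_44_P341870, lies at chr4:5666961-5667020. The Ucp2 probe is placed at chr1:158005921-158006364 and the Sirt3 probe at chr1:201171425-201171484. Whether these positions fall in exons or untranslated regions was not looked up, since no annotation of rn3 was used here. Capitals mark runs of 6 bases (hexamers) that were far more frequent in the 200 highest probes of other genes than in all tested probes.
Prkag2 A_44_P468323: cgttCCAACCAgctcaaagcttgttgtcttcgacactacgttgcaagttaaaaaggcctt
Prkag2 A_44_P341870: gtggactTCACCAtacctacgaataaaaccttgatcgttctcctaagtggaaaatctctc
Ucp2: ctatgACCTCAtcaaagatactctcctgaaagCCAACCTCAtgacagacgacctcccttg
Sirt3: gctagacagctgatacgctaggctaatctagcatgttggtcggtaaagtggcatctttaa
Prkag2 A_44_P468323 and Ucp2 carry 2 such hexamers each, covering 7 and 15 bases, Prkag2 A_44_P341870 carries 1, and the Sirt3 probe carries none. None of the other 7 probes of these genes carries one.

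Prkag2, Ucp2 and Sirt3 were higher in the resveratrol + DSS samples than in the DSS control pool, by 4.30-fold at one Prkag2 probe, 2.07-fold for Ucp2 and 1.34-fold for Sirt3. Prkab1, Ppargc1a and Esrra did not pass the test, and Sirt1, Sirt5, Prkaa1 and Prkag1 were too dim to be tested. Of the 7 tested probes 4 were called higher and 0 lower, at a Benjamini-Hochberg adjusted p of 0.05 over all tested probes in limma, and at an unadjusted p of 0.05 the counts were likewise 4 and 0. Over all tested probes, 24.4% were called higher and 22.7% lower, 47.1% in either direction. In bulk mucosa, fewer cells of a type and less RNA per cell cannot be told apart.

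**Figure D1:**
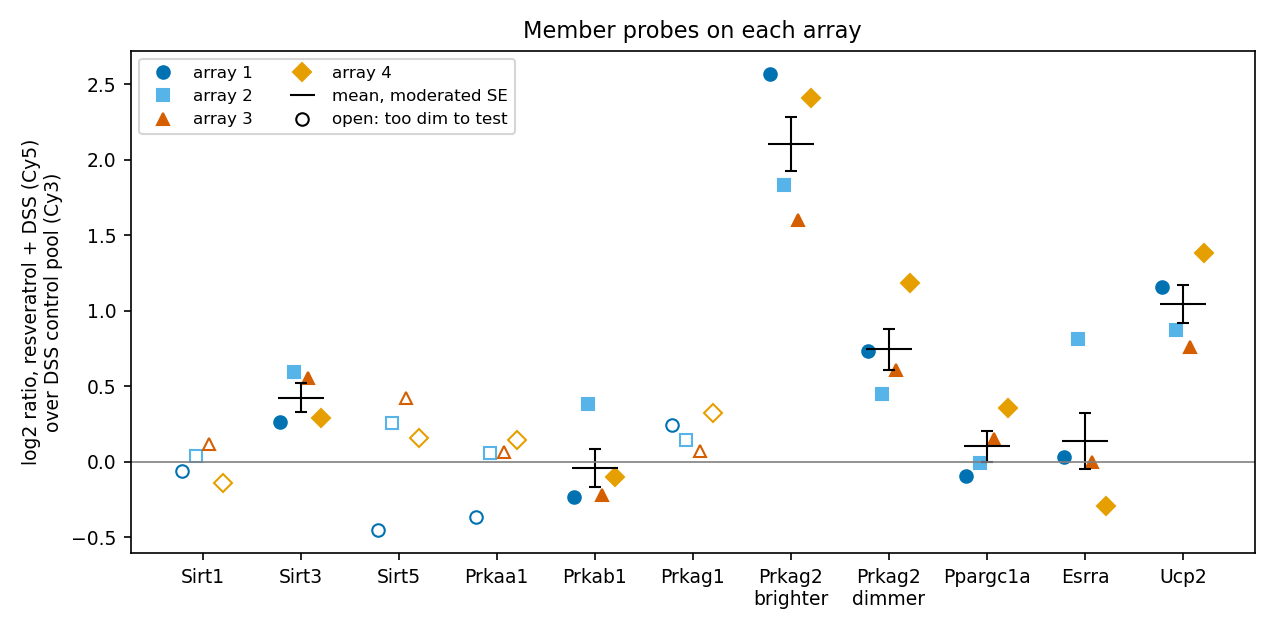
Log2 ratio of resveratrol + DSS (Cy5) over the DSS control pool (Cy3) for each of the 11 probes, with 1 point per array. Both Prkag2 probes, Ucp2 and Sirt3 lie above 0 on all 4 arrays, and the Esrra points run between -0.30 and 0.82.

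Among the AMPK subunits, the gamma subunit Prkag2 had the highest ratio. At probe A_44_P468323 its normalised log2 intensity was 11.98, 11.63, 10.87 and 12.43 in the resveratrol + DSS channel of arrays 1 to 4, against 9.41, 9.79, 9.26 and 10.02 in the control pool channel. The channels did not overlap, and both were well above background on all 4 arrays. Before normalisation the mean signals were 6953, 4041, 2209 and 8067 for resveratrol + DSS, against 405, 706, 519 and 719 for the control pool. The log2 ratio was 2.57, 1.83, 1.60 and 2.41, with a mean of 2.10 ± 0.18 (moderated SE, n = 4 arrays, adjusted p = 0.00404), the mean that ranked 16 from the highest among the 18869 tested probes. Arrays 1 and 4 were the high ones and arrays 2 and 3 the low ones. By slide the mean ratio was 2.20 on slide 1 and 2.01 on slide 2.

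**Figure D2:**
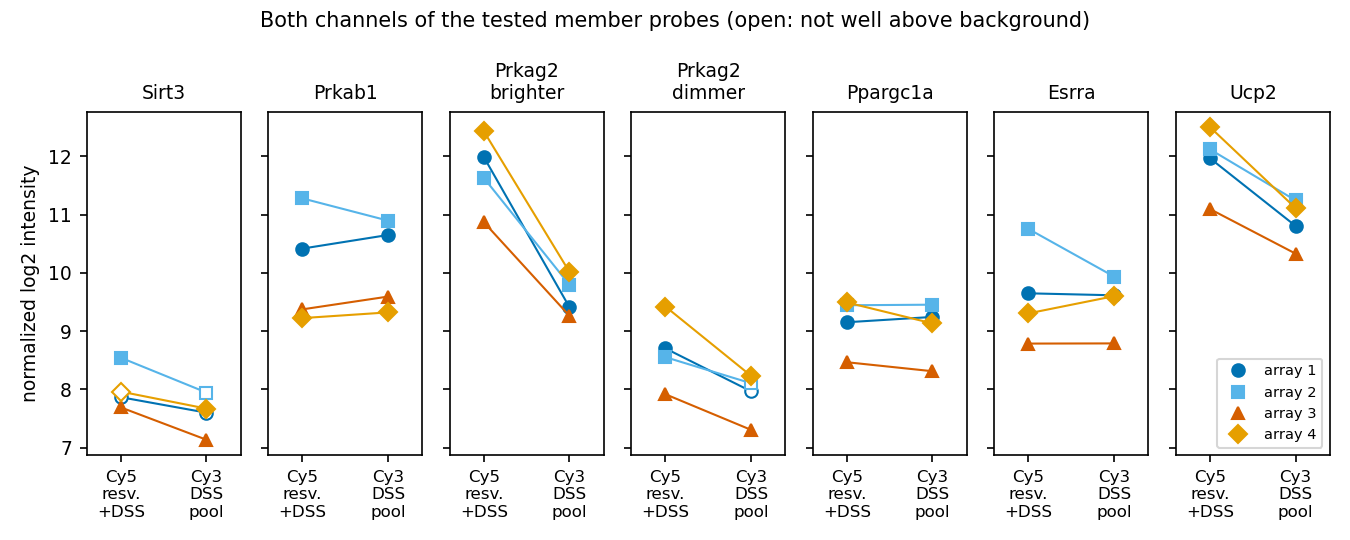
Normalised log2 intensity of the 7 tested probes on each array, resveratrol + DSS (Cy5) left of the DSS control pool (Cy3), with lines joining the channels of an array. Open points were not well above background, and both channels of Prkag2 A_44_P468323 are filled on all 4 arrays and do not overlap.

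The other Prkag2 probe, A_44_P341870, gave a smaller ratio in the same direction. Its log2 intensity was 8.70, 8.55, 7.92 and 9.42 for resveratrol + DSS, against 7.97, 8.11, 7.31 and 8.24 for the control pool, so the channels overlapped across arrays although each array had the resveratrol + DSS channel higher. The control pool was well above background on arrays 3 and 4 only. Its ratios of 0.74, 0.45, 0.61 and 1.19 averaged 0.74 ± 0.13 (n = 4, adjusted p = 0.0103). On slide 2 alone the mean was 0.90 and the call was lost (adjusted p = 0.0504), and with the scanner's processed signals it was 1.39.

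The size of the ratio therefore differed between the probes for Prkag2, by an amount that depended on the processing. A_44_P468323 exceeded A_44_P341870 by 1.84, 1.39, 0.99 and 1.22 in log2 ratio on arrays 1 to 4, a mean of 1.36 ± 0.36 (SD, n = 4). Among 1088 other genes with 2 tested probes on all arrays, not matched for brightness, the median absolute difference was 0.28. Of them 2.30% differed at least as much as Prkag2. In the authors' deposited table, A_44_P468323 stands at 2.67, 1.95, 1.85 and 2.40 and A_44_P341870 at 1.41, 1.06, 1.25 and 1.77, a narrower gap. With the scanner's processed signals the gap was also narrower, with means of 2.015 and 1.392.

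Of Prkab1, Prkaa1 and Prkag1, only Prkab1 was bright enough to be tested, and it did not pass. Prkab1, a beta subunit, had log2 intensities of 10.42, 11.28, 9.37 and 9.22 for resveratrol + DSS, against 10.65, 10.90, 9.59 and 9.32 for the control pool. Only array 2 had the resveratrol + DSS channel higher, and the mean ratio was -0.04 ± 0.13 (n = 4, adjusted p = 0.792). Prkaa1, a catalytic alpha subunit placed at chr2:54287074-54287133, stayed near background in both channels of every array, and its ratios were -0.36, 0.06, 0.07 and 0.14. Prkag1, another gamma subunit at chr7:137659578-137659637, was equally dim, with ratios of 0.25, 0.15, 0.08 and 0.33. All 4 Prkag1 ratios were above 0, but with the filter on dim probes removed the mean of 0.20 did not pass (adjusted p = 0.102). In the same limma test on the authors' deposited table it was 0.50 and passed (adjusted p = 0.0213).

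Sirt3, the main mitochondrial deacetylase, was the only one of Sirt1, Sirt3 and Sirt5 bright enough to be tested. Its log2 intensity was 7.87, 8.54, 7.69 and 7.96 for resveratrol + DSS, against 7.60, 7.95, 7.14 and 7.67 for the control pool. Each array had the resveratrol + DSS channel higher, while the ranges of the channels overlapped and each channel was well above background on only 2 arrays. The ratios of 0.27, 0.60, 0.56 and 0.29 averaged 0.43 ± 0.10 (n = 4, adjusted p = 0.0186), which 80.5% of tested probes lay below. The call was lost without array 1 (0.48, adjusted p = 0.0522), without array 2 (0.37, adjusted p = 0.0878) and on slide 2 alone (0.42, adjusted p = 0.106). With the scanner's processed signals the mean was 0.95 and in the authors' deposited table the arrays stand at 0.61, 1.43, 1.08 and 0.61.

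Sirt1, the nuclear sirtuin most often linked to resveratrol, was close to background. Its probe at chr20:25682000-25682059 was well above background in 1 channel of 1 array, the control pool of array 4. The ratios were -0.06, 0.04, 0.12 and -0.14, with no shared direction. Sirt5, the mitochondrial desuccinylase, at chr17:27138496-27138555, was well above background for resveratrol + DSS on array 3 and for the control pool on arrays 3 and 4. Its ratios were -0.45, 0.26, 0.43 and 0.16. With dim probes included, neither Sirt1 nor Sirt5 passed (adjusted p = 0.940 and 0.643), and neither did Prkaa1 (adjusted p = 0.888).

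Ppargc1a and Esrra were measured well above background in both channels on all 4 arrays and did not pass the test. Ppargc1a, at chr14:64368058-64368117, had log2 intensities of 9.15, 9.44, 8.47 and 9.49 for resveratrol + DSS, against 9.24, 9.45, 8.31 and 9.13 for the control pool. Its ratios of -0.09, -0.01, 0.15 and 0.36 averaged 0.10 ± 0.10 (n = 4, adjusted p = 0.423), with the slide 2 arrays above 0 and the slide 1 arrays at or below it. Esrra, at chr1:209746161-209746220, had log2 intensities of 9.65, 10.75, 8.79 and 9.31 for resveratrol + DSS, against 9.62, 9.94, 8.79 and 9.60 for the control pool. Array 2 stood at a ratio of 0.82 while the others lay at 0.03, 0.00 and -0.30. The Esrra mean of 0.14 ± 0.18 (n = 4, adjusted p = 0.544) turned to -0.09 without array 2.

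Ucp2, an inner-membrane carrier counted among the uncoupling proteins and expressed in many tissues, was higher on every array. Its log2 intensity was 11.97, 12.12, 11.09 and 12.50 for resveratrol + DSS, against 10.81, 11.24, 10.33 and 11.11 for the control pool. The ranges of the channels overlapped slightly, since array 3 was dim in both. The ratios of 1.16, 0.88, 0.76 and 1.39 averaged 1.05 ± 0.12 (n = 4, adjusted p = 0.00492), with 1.02 on slide 1 and 1.08 on slide 2. Its probe is printed 10 times on the array, which gives a measure of technical spread. Within an array the spots ran between 0.88 and 1.31 on array 1, 0.82 and 0.99 on array 2, 0.66 and 1.06 on array 3, and 1.17 and 1.74 on array 4. The SD between the 4 arrays was 0.28, against 0.06 to 0.15 between spots of an array. On array 2, 8 of the 10 spots entered, the rest being marked as outliers by the scanner software. Median centring gave a mean of 1.62 and keeping outlier spots 1.60.

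**Figure D3:**
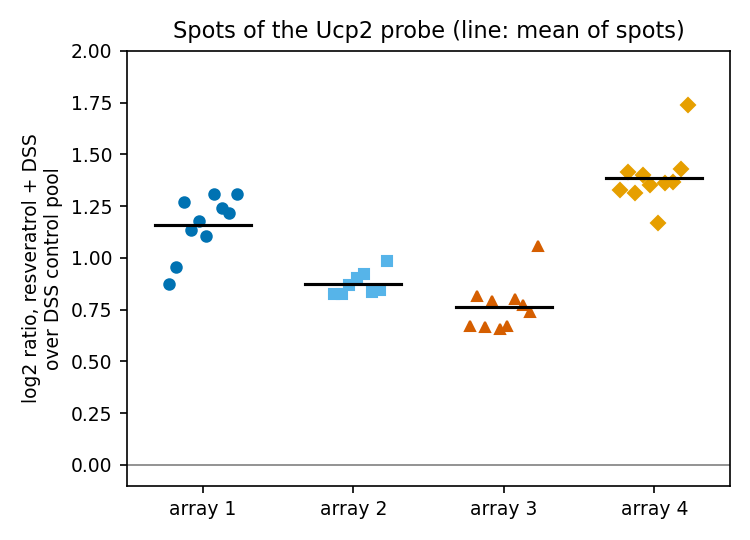
Log2 ratio of resveratrol + DSS over the DSS control pool for each spot of the Ucp2 probe on each array, with 8 to 10 spots per array. Every spot used lies above 0, and arrays 1 and 4 stand above most spots of arrays 2 and 3.

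The array-to-array pattern of the Prkag2 and Ucp2 ratios resembled that of the highest probes of other genes. Both Prkag2 probes and Ucp2 were higher on arrays 1 and 4 than on arrays 2 and 3. The median of the 200 highest probes of other genes was 2.02, 1.53, 1.15 and 2.08 on arrays 1 to 4, the same order of arrays as for Ucp2. Sirt3 ran the other way, with arrays 2 and 3 its higher ones. The genes most like Prkag2 A_44_P468323, by root mean square difference over the 4 arrays among 7630 genes, were Ankrd28 (0.022), Cldn11 (0.060) and Hoxa11 (0.070). Ankrd28, with ankyrin repeats, had ratios of 2.55, 1.83, 1.64 and 2.43. Cldn11 is a claudin of tight junctions and Hoxa11 a homeobox gene. For Sirt3 the nearest were Coq7 (0.031), an enzyme of ubiquinone synthesis, Nln (0.058), the peptidase neurolysin, and Morf4l2 (0.062), a chromatin factor.

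**Figure D4:**
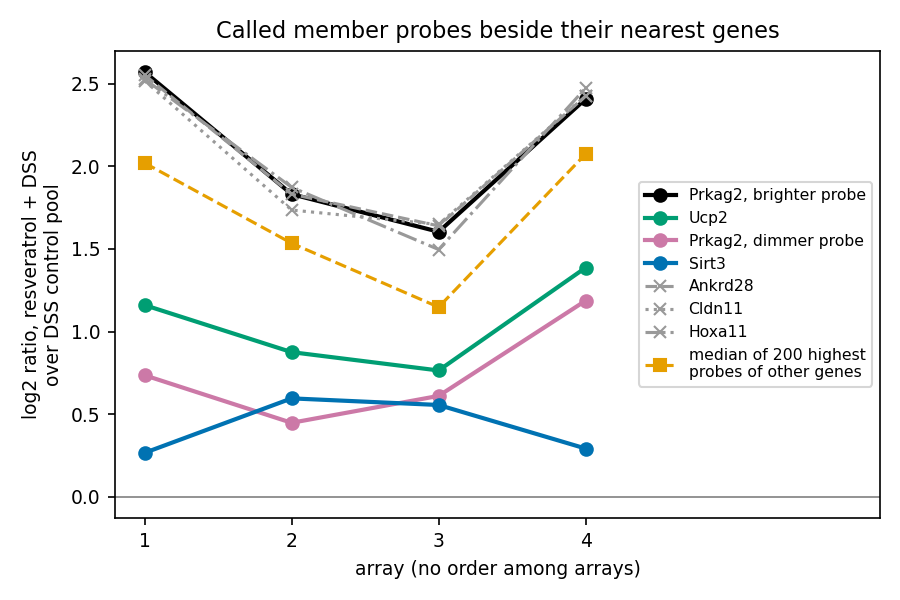
Log2 ratio on each array for the 4 called probes of Prkag2, Ucp2 and Sirt3, the 3 genes nearest to Prkag2 A_44_P468323, and the median of the 200 highest probes of other genes. Ankrd28, Cldn11 and Hoxa11 overlie Prkag2 A_44_P468323 on all 4 arrays, and Sirt3 has its higher values on arrays 2 and 3.

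Short sequence runs were shared among the highest probes. A set of 16 hexamers, such as CACCTC and ACCACC, read on the printed strand only and overlapping one another, were at least 4 times as common among the 200 highest probes of other genes as among all tested probes. At least 1 of the 16 occurred in 19.6% of tested probes and in 87.5% of those 200, a share that is partly built in by the choice. Of the probes with such a hexamer 29.8% were called higher, against 23.0% of those without. The 200 probes that gave the hexamers are counted in these shares, so part of that gap is built in too. The Prkag2 and Ucp2 probes carry them (CCAACC and CAACCA in the first Prkag2 probe), as do the Ankrd28 and Hoxa11 probes, whereas the Cldn11 and Sirt3 probes do not. A fit without hexamer probes removes both Prkag2 probes and Ucp2 beforehand, so it cannot test their calls. Sirt3 kept its call in that fit. The part of these runs in the Prkag2 and Ucp2 ratios was not tested.

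Markers of other cell types differed between the channels beside these genes. Of 12 epithelial markers, all tested, 6 were higher and 0 lower with a median log2 ratio of 0.84. Under median centring 12 were higher, and with outlier spots kept 11. Hexamers lay in 5 of the 12 probes, those of Muc2, Krt18 and Cdx1 among them, and without such probes 3 of 7 were higher. Another Krt18 probe, at 0.25, was not called. Sums of signal cover those markers of each list that were above background on some array and had values on all 4 arrays. They can include untested genes and leave out tested ones, so the genes summed differ from those tested. Over 7 epithelial markers the sum was 29915 to 86869 for resveratrol + DSS against 24358 to 35768 for the control pool, higher on all 4 arrays. Muc2, the goblet cell mucin, rose by a log2 ratio of 1.63 ± 0.20 (adjusted p = 0.00492). Of 8 tested leukocyte markers 6 were lower, against 3 without array 1, 2 without array 2 and 4 without array 4, and under median centring 4 were lower and 2 higher. Cd14 and Ptprc were not called at the brightest probe, the one counted (0.24 and 0.20). At other probes Cd14 was called higher (0.73) and Ptprc lower (-0.71). The leukocyte sums, over 8 markers with Cd68 and Itgam in place of Lyz2 and Tyrobp, were 2591 to 8481 for resveratrol + DSS. Those of the control pool were 7850 to 18027. Of 6 tested fibroblast markers 5 were lower. The exception, Col1a1, stood at 0.22 on 3 arrays, and its other probes were called lower at -2.71 and -1.48. The sums over 6, with Lum in place of Col1a1, were 2170 to 4082 for resveratrol + DSS against 7026 to 12416 for the control pool. Smooth muscle markers had 1 of 5 lower, a call lost without array 1, 2 or 4, and the sums over Actg2, Des and Tagln were 4515 to 19153 for resveratrol + DSS against 7975 to 16111 for the control pool. Acinar pancreas markers had 3 of 4 lower, and the sums over 4, with Cpa1 in place of Cela1, were 598 to 1331 for resveratrol + DSS against 4758 to 12628 for the control pool. The defining markers Thy1 of fibroblasts and Pnlip of pancreas were not well above background on any array. All 12 epithelial markers of the labelled tissue were above background in at least 1 channel. Amy2a3, a pancreatic amylase, was at least 23.4-fold lower for resveratrol + DSS, whose channel was not well above background. The part of these markers in the Prkag2, Ucp2 and Sirt3 ratios was not tested.

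The other genes of the same pathways, each represented by its brightest probe, were read against 25.5% of 10320 named genes called higher and 19.3% called lower, with a median log2 ratio of 0.02. Of 11 other AMPK subunits and upstream kinases 7 were tested, 4 were higher and 1 lower, with a median of 0.41. In limma 0 of the 7 were called without array 1 or without array 2 (3 higher and 1 lower at an unadjusted p of 0.05 in each), on slide 2 alone (2 and 1) or with the standard error times the square root of 2, which allows for a spread of the pool (4 and 0). Cab39, which encodes the MO25 scaffold of the LKB1 complex, rose to 0.59 ± 0.12 (adjusted p = 0.0144). Stk11, which encodes the AMPK-activating kinase LKB1 itself, rose to 0.51 ± 0.10 (adjusted p = 0.0122), with 0.69 at another probe. Prkab2, the other beta subunit, fell to -0.39 ± 0.13 (adjusted p = 0.0450) with ratios of -0.12, -0.24, -0.77 and -0.44. Neither Cab39 nor Stk11 passed without array 1 (adjusted p = 0.0582 and 0.0556) or without array 2 (0.0618 and 0.0555), and Prkab2 lost its call with any 1 array left out (adjusted p = 0.0653 to 0.108) and under median centring (-0.27, adjusted p = 0.198). Of 14 AMPK substrate genes 9 were tested, 0 were higher and 1 lower (0 and 4 at an unadjusted p of 0.05 in limma), with a median of -0.25 that turned to 0.04 under median centring. That lower gene was Pfkfb3, an enzyme making a glycolytic activator, at -0.51 ± 0.10 (adjusted p = 0.0128), or -0.24 and not called under median centring (adjusted p = 0.257).

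Of 10 genes of the PGC-1 family and its nuclear receptor partners 7 were tested, 4 were higher and 0 lower (2 lower at an unadjusted p of 0.05 in limma), with a median of 0.49, and 4 were higher with any 1 array left out. With that wider standard error 2 were higher, and on slide 2 alone 0 of 5 were called in limma (4 higher at an unadjusted p of 0.05). Ncor1, a nuclear receptor corepressor, is one of the 2 lower at an unadjusted p: its brightest probe gave -0.40 on 2 arrays, whereas its 4 other probes, with values on 4 arrays, were all called higher at 0.33 to 0.76. Rxra, the retinoid X receptor alpha, rose to 0.66 ± 0.12 (adjusted p = 0.00973) on ratios of 0.95, 0.63, 0.70 and 0.35. Nrip1, a corepressor of nuclear receptors and so opposed to the coactivators of this list, rose to 0.64 ± 0.09 (adjusted p = 0.00554) on ratios of 0.73, 0.50, 0.60 and 0.74. On slide 2 alone neither passed (adjusted p = 0.0811 for Rxra and 0.0505 for Nrip1).

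Among genes that carry out mitochondrial biogenesis, each by its brightest probe, the share called higher lay near that of all named genes. Of 13 genes for transcription and replication of mitochondrial DNA 10 were tested, 3 were higher and 0 lower, likewise at an unadjusted p of 0.05 in limma, with a median of 0.20. In limma 0 of the 10 were called without array 1 or without array 2 (2 higher at an unadjusted p of 0.05 in each). The count was also 0 on slide 2 alone (0 at an unadjusted p) and with the wider standard error (2 higher). Polg, the mitochondrial DNA polymerase, rose to 0.42 ± 0.10 (adjusted p = 0.0216), with 0.11 and no call at another probe. Gabpa, a subunit of nuclear respiratory factor 2, rose to 0.36 ± 0.10 (adjusted p = 0.0279). Polg lost its call without array 1 (adjusted p = 0.0641) or array 2 (0.0929), and Gabpa without array 1 (0.0802), array 2 (0.103) or array 4 (0.0656). Twnk, also called higher (0.35, adjusted p = 0.0463), was not called at another probe (-0.20, adjusted p = 0.137). Of 10 genes for mitochondrial dynamics and mitophagy 8 were tested, 3 were higher and 1 lower, with a median of 0.14. These counts depend on the probe taken. Mfn2 and Mfn1 were not called at their brightest probes (0.09 and -0.39). Each was called higher at another probe (0.53, adjusted p = 0.00665, and 0.33, adjusted p = 0.0338). Dnm1l, called higher at its brightest probe, was not called at another (0.30, adjusted p = 0.113). Mff, a fission factor, rose to 0.46 ± 0.11 (adjusted p = 0.0231) and Opa1, a fusion GTPase, to 0.45 ± 0.09 (adjusted p = 0.0113). The fission and fusion genes both lost the call without array 1 (adjusted p = 0.0790 for Mff and 0.0563 for Opa1) or array 2 (0.0947 and 0.0636). Bnip3l, a mitophagy receptor, fell to -0.57 ± 0.14 (adjusted p = 0.0364) on arrays 1 and 2 alone, and stood at -0.10 under median centring (adjusted p = 0.770).

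Of 4 other sirtuins 2 were tested and 0 called by limma (1 at an unadjusted p of 0.05), Sirt2 at 0.43 ± 0.17 (adjusted p = 0.0720) and Sirt6 at -0.17 (adjusted p = 0.180). Of 13 genes for NAD synthesis and consumption 9 were tested, 1 was higher and 2 lower, with a median of -0.25. Nampt of this list was not called at its brightest probe (0.18, adjusted p = 0.207) and was called higher at another (0.40, adjusted p = 0.0305). Cd38, an NAD-consuming ectoenzyme of leukocytes and other cells, rose to 0.52 ± 0.15 (adjusted p = 0.0358), on ratios of 0.88, 0.60, -0.01 and 0.62. Cd38 lost its call without array 1 (adjusted p = 0.119), array 2 (0.109) or array 4 (0.0943). The NAD-making adenylyltransferase Nmnat3 fell to -0.61 ± 0.13 (adjusted p = 0.0160), and its relative Nmnat2, with values on 2 arrays, to -0.51 ± 0.13 (adjusted p = 0.0407). Under median centring 2 genes of the NAD list were higher and 0 lower, with Nmnat3 at -0.31 and Nmnat2 at -0.155, neither called (adjusted p = 0.136 and 0.634).

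Of 13 genes whose products sirtuins deacylate 11 were tested, 4 were higher and 2 lower, with a median of 0.16. Acss2, the acetyl-CoA synthetase of cytosol and nucleus, rose to 0.76 ± 0.16 (adjusted p = 0.0147). The transcription factors Foxo1 and Foxo4 fell to -0.94 ± 0.26 (adjusted p = 0.0457) and -0.74 ± 0.13 (adjusted p = 0.0186), each with values on 2 arrays. Foxo1 lost its call without array 1, on which it had no value (adjusted p = 0.0637). Under median centring 7 genes of this list were higher and 0 lower, with Foxo1 at -0.55 and Foxo4 at -0.28, neither called (adjusted p = 0.0541 and 0.356). Of 5 other uncoupling proteins only Ucp1 was tested. The uncoupling protein of brown fat, it fell to -0.67 ± 0.08 (adjusted p = 0.00506), with ratios of -0.56, -0.61, -0.72 and -0.78, opposite in sign to Ucp2.

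**Figure D5:**
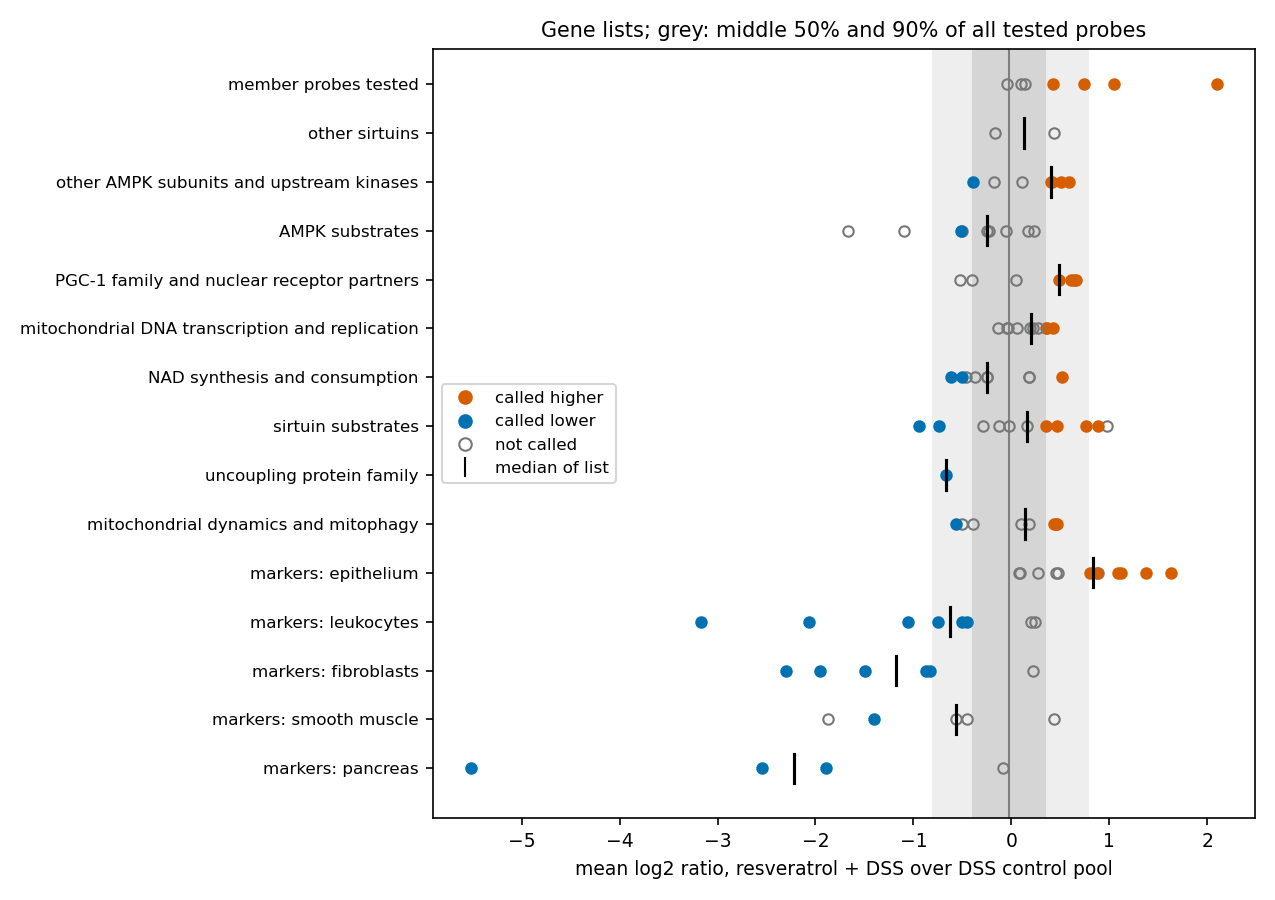
Mean log2 ratio of resveratrol + DSS over the DSS control pool for the 7 tested probes and for the genes of each pathway or marker list, filled where called and with a bar at each list's median, over shading for the middle range of all tested probes. Prkag2 A_44_P468323 at 2.10 and Ucp2 at 1.05 lie outside the wider shading, and the Amy2a3 and Prss1 points of the pancreas list rest on resveratrol + DSS signals not well above background.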

How the data were processed

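RNA of 4 resveratrol + DSS samples was hybridised on two-colour arrays against a DSS control pool. Per the file headers, the deposited intensity values of spots were read by Feature Extraction 9.5.3.1 of Agilent, and probes are placed on rn3. The authors' deposited table holds log2 ratios. Against the scanner's ratios of Cy5 over Cy3 its columns gave r of 0.981 to 0.992 and slopes of 0.97 to 1.00, and their medians were -0.013, -0.013, 0.091 and -0.025. How they were centred is not stated. Feature Extraction and limma are named in the submitters' processing notes.

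From mean signals and background medians, normexp correction (offset 50) and loess within arrays were run in limma 3.58.1 (R 4.3.3). Control spots (1639 of 45018) and outlier-marked spots had weight 0, and spots of a probe were averaged. A probe entered where 1 or both channels were well above background on 3 or more arrays (20409). Of these, 1540 had under 2 values, and 14200 of the 18869 tested had 4. Mean log2 ratios were tested against 0 with lmFit and eBayes, two-sided, adjusted by Benjamini-Hochberg at 0.05, and tested on simulated data. The pool counts as 1 control sample, so its own spread is not in the test, and p-values measure only the spread between 4 samples. The number of arrays limits the precision. Spots well above background made up 44.1% to 49.2% for resveratrol + DSS and 42.8% to 57.1% for the control pool, and outlier spots made up 3.45%, 4.68%, 11.0% and 13.7% on arrays 1 to 4. Arrays are numbered by accession order.

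Names came through accessions and symbols from a RefSeq gene table of GRCr8, used for names only, and 19025 probes stayed unnamed. Every probe of the 10 genes is reported. From each pathway list up to 2 called genes per direction with the largest absolute mean ratio are named, and the 3 genes nearest to the highest and lowest called probe. Some genes that the rule takes are left out of the text. Sirt2, Sirt6, Twnk, Muc2 and Amy2a3 were named after their values were seen. The genes, lists and rules were chosen with earlier results of these data known. Alternatives were other background corrections, normalisations, filters, priors and weights, the processed signals, the authors' table, slides, a wider error and each array left out. Leaving out hexamer probes was chosen after seeing the data.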

Additional observations from a re-analysis of the deposited data

How the results depend on the processing

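Prkag2 A_44_P468323 and Ucp2 were called higher under all 20 alternatives that kept their probes, with means of 1.95 to 2.62 and 0.93 to 1.62 and a largest adjusted p of 0.0461 and 0.0468. The count of called probes, 8886 as reported, was 4551 under a filter asking every array for signal above background in both channels, 1749 on slide 2 only, 2180 with standard errors widened by the square root of 2, as an allowance for the pool's own spread, and 3410 to 8964 with each array left out. The 4 called probes of these genes became 2 under each of the first 3 of these and 3 to 4 with each array left out. Without hexamer probes 1 was called, Sirt3, since both Prkag2 probes and Ucp2 are removed before that fit. In each of those refits 0 were lower. Under the filter on both channels, Prkag2 A_44_P341870 and Sirt3 were not tested. With the wider error they missed the threshold (adjusted p = 0.0557 and 0.0838). Prkag2 A_44_P341870 averaged 1.37 and Sirt3 0.93 in the authors' table.

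Esrra turned to -0.149 on slide 2 and ranged between -0.088 (without array 2) and 0.282 with each array left out, and passed at 0.46 under median centring (adjusted p = 0.0218). Ppargc1a turned to -0.051 on slide 1. Prkab1 turned to 0.363 under median centring, 0.213 with outlier spots kept, 0.041 with array weights and 0.074 on slide 1, and ranged between -0.183 and 0.022 with each array left out, above 0 without array 1 or array 3. None of these Prkab1 values passed. The cause was not tested. Median centring moved the median of all probes to 0.20, against -0.02, and the calls to 6852 higher and 1839 lower, against 4597 and 4289, so each direction is relative to that choice. Calls were 747 higher and 1002 lower on slide 2, 1456 and 724 with the wider error, 3591 and 3786 without hexamer probes, and 2584 and 1967 under the filter on both channels. Quantile scaling between arrays of the channels' mean leaves ratios as they are by construction. Each ratio sets the channels of 1 array against each other, so the test is already paired by array. With a single group, no replicate number is shared between groups, and the main fit had no further block. An alternative limma fit with slide as a random block called 6972 probes, with 4 probes of these genes higher and 0 lower. Of the named pathway genes, Cd38, Prkab2, Nmnat2 and Bnip3l lost their calls under that block (adjusted p = 0.0550 to 0.0629). Sirt1, Sirt5, Prkaa1 and Prkag1 are limited by signal over background.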
